A study of Mus musculus with 69 samples.

Results

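Parvalbumin (PV) neurons of the primary visual cortex (V1) were compared with PV neurons of the primary somatosensory cortex (S1) in wild-type (WT) mice. The comparison used the 20 libraries, of 69 in the series, whose names give the WT genotype and an animal code beginning with P. These were 10 V1 and 10 S1 libraries from 10 mice, 5 female and 5 male, and each mouse gave 1 library of each area. All mice were PV-Cre Rpl22HA/HA and 70 to 100 days old. In this RiboTag design, Cre recombination puts an HA epitope on the ribosomal protein RPL22, and an antibody against the epitope pulls down ribosomes of the recombined cells with the RNA bound to them. The mice were anaesthetised with isoflurane and perfused with ice-cold choline solution, and each area was dissected from both hemispheres of coronal slices 1.5 mm thick and lysed with cycloheximide, per the labels' protocols. The sources used here do not give housing light conditions or time of day. For comparison, the same contrast was taken in PV-Cre Rpl22HA/HA mice lacking Fmr1 (KO, 9 animals with both areas) and in WT Camk2a-Cre Rpl22HA/HA mice (7 animals with both areas), of the same age range. Camk2a-Cre marks mainly excitatory cortical neurons.

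PV interneurons are the fast-spiking inhibitory cells of the cortex. They synapse on the soma and proximal dendrites of pyramidal cells, fire brief spikes at high rates with the help of Kv3 potassium channels, and are often wrapped in perineuronal nets. V1 receives visual and S1 touch input through different thalamic nuclei. Activity-regulated genes are transcribed soon after synaptic input and calcium entry, through factors such as CREB, and their mRNA level is widely read as a trace of recent activity.

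The libraries held 30.74 to 48.29 M estimated counts, with means of 36.11 ± 2.24 M (SD, n = 10) in V1 and 37.32 ± 5.26 M (n = 10) in S1. The labels give all 20 the same batch, and the sex-linked genes of all 20 matched the labelled sex. Markers of PV cells were abundant in both areas. Pvalb itself lay at 448 ± 141 CPM in V1 and 577 ± 148 CPM in S1 (mean and SD, n = 10 each), Gad1, which makes GABA, at medians of 3248 CPM in V1 and 3731 CPM in S1, and the synaptotagmin gene Syt2 at 1344 CPM in V1 and 1984 CPM in S1. Fmr1, intact in these mice, was at 44.8 ± 3.99 CPM in V1 and 45.3 ± 4.94 CPM in S1 (mean and SD, n = 10 each), with a log2 difference of -0.04 (adjusted p = 0.578). Values per animal below are CPM, counts scaled to the total of each library, and differences are log2 V1 minus S1, fitted within animals.

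The libraries of animal P22 went against their area labels. Of the 6729 genes called between areas in the other 9 animals, 22.1% had the labelled sign in P22. For each of the other animals, this share among the genes called without it was between 72.6% (P21) and 98.5% (P4). Fos, highest in V1 elsewhere, lay at 3.76 and 43.5 CPM in the P22 libraries labelled V1 and S1, and Kcng4, high in S1 elsewhere, at 257 and 105 CPM. The labels were kept. Counts over gene lists are given for the 9 animals without P22 and then for all 10. P22 was set aside for values of the contrast itself, so a larger count without it is no independent support. The same holds for ranges free of overlap and for smaller adjusted p in the 9 animals. Values of single genes below are for the 9 animals without P22 unless 10 animals are named. Each of these genes that was called in 9 animals had the same direction in 10, and those that missed the threshold in 10 are pointed out.

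**Figure D1:**
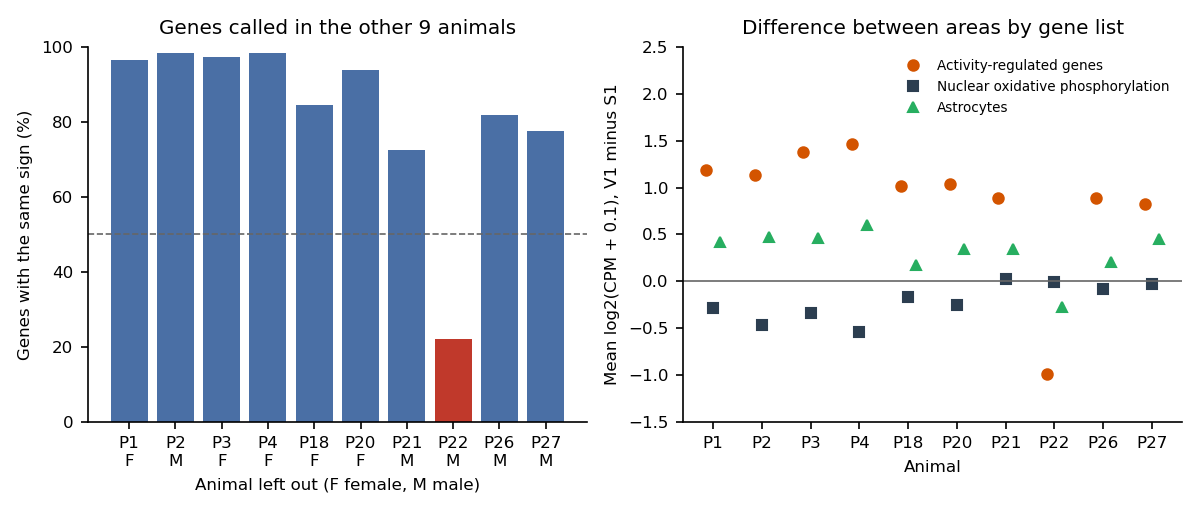
The left panel plots, for each animal, the percentage of genes called in the other 9 animals that had the same sign in it; P22 stands at 22.1% and the others at 72.6% or more. The right panel plots the mean log2(CPM + 0.1) difference, V1 minus S1, over the members of 3 gene lists per animal; activity-regulated genes lie between 0.82 and 1.46 in 9 animals and at -0.99 in P22.

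Markers of glia and of excitatory neurons also moved with the areas. A glial score, the mean log2 CPM of astrocyte, oligodendrocyte, precursor, microglia and vascular markers, ranged from 2.09 to 2.75 (median 2.47) in V1 and from 1.77 to 2.25 (median 2.06) in S1 of 9 animals. In P22 it was 1.72 in the library labelled V1 and 2.02 in that labelled S1. An excitatory score ranged from 3.33 to 3.96 (median 3.6) in V1 and from 3.28 to 3.59 (median 3.42) in S1, with 3.38 and 3.27 in P22. The glial score was higher in V1 in 9 of 10 animals, and so was the excitatory score. When the glial score was added to the fit, 0 of 15964 genes (0.0%) were called in 10 animals (333 at an unadjusted p under 0.05) and 1 of 16013 (0.00624%) in 9 (977 at an unadjusted p under 0.05). The signs of many genes then changed, and they are listed with the other settings at the end. A marker that belongs to the score was adjusted for a value that holds it, so part of its shift is built in. P22 was the only animal with a lower glial score in its V1 library, and its libraries went against their labels. The fit with this score in 10 animals therefore leans on P22. Genes with the opposite order in P22 are drawn toward 0 or past it, so these values, here and below, decide nothing about the area difference. With the excitatory score, 0 genes were called in 10 animals (1249 at an unadjusted p under 0.05) and 2057 (12.8%) in 9. How far RNA of these other cells enters each difference below cannot be told apart from the area itself, since both moved together.

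In 10 animals, 4243 of 15964 tested genes (26.6%) differed between V1 and S1, 2015 higher in V1 (12.6%) and 2228 lower (14%). Without P22, 6729 of 16013 genes (42.0%) were called, 3323 higher (20.8%) and 3406 lower (21.3%). Called genes are those with an adjusted p under 0.05. The calls shared 4227 genes, all with the same sign. The counts of list members below stand against these shares of all tested genes. Most differences were small, with a median size of 0.29 on the log2 scale among the genes called in 9 animals. A difference of at least 1 was found for 434 of them, 376 higher in V1 and 58 lower. The ranges of the 9 V1 and 9 S1 libraries did not overlap for 320 genes higher in V1 (2.0% of those tested) and 228 lower (1.42%). In bulk RNA such as this, fewer cells of a type and less RNA per cell cannot be told apart.

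By count, though not by share, activity-regulated genes were the list with the most members higher in V1 in 9 animals. Shares were larger for the shorter lists of nuclear-retained RNAs (9 of 9) and oligodendrocyte precursor markers (8 of 9). Of 32 tested activity-regulated members, 28 were higher and 3 lower in V1 in 9 animals (23 and 3 in 10), against 20.8% and 21.3% of all genes. The median log2 difference was 1.02 (0.88 in 10 animals), while that of all tested genes was 0.009. Their summed level ranged from 1719 to 2832 CPM (median 2038) in V1 and from 982.6 to 1356 CPM (median 1079) in S1, so the areas did not overlap in the 9 animals. In P22 the sum was 832.8 CPM in the library labelled V1 and 1548 CPM in that labelled S1. For 9 members, all higher in V1, the ranges of the areas did not overlap.

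The promoters of 4 members are shown because a sequence bound by CREB is a known feature of activity-regulated promoters. Each is the 150 bases before the gene's start in RefSeq (build GRCm38.p6), 5′ to 3′ on the strand of the gene, at chr12:85473740-85473889 (plus strand) for Fos, chr7:19310046-19310195 (minus strand) for Fosb, chr15:101266696-101266845 (plus strand) for Nr4a1 and chr8:84978749-84978898 (minus strand) for Junb. Capitals mark TGACG, the core of the cAMP response element, or its reverse complement CGTCA.
Fos: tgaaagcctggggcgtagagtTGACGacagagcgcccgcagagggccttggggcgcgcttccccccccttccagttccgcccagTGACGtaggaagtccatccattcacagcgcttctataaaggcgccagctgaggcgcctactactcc
Fosb: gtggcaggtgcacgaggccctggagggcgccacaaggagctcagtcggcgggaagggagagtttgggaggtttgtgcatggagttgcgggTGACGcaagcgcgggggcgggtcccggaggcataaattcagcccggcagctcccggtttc
Nr4a1: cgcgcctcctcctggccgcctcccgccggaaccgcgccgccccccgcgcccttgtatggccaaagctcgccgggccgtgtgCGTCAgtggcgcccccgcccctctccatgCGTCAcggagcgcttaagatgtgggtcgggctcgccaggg
Junb: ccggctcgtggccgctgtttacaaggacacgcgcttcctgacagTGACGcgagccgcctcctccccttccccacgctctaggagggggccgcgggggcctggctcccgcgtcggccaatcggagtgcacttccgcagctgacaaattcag

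In windows of 300 bases around the RefSeq start, TGACG on either strand was present in 17 of 26 members of the list with a promoter entry (65.4%) and in 16 of the 22 called higher in V1 (72.7%). It was present in 34.3% of the promoters of all genes tested and in 23.0% of all promoters in the table. The full palindrome TGACGTCA, which holds TGACG on both strands, was found in 3 of the 26 members (11.5%) and in 3.5% of the tested genes' promoters. A match describes the letters in the window and is no evidence of binding.

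Fos (ENSMUSG00000021250, chromosome 12, 85473890 to 85477273, plus strand, mm10), which encodes a subunit of the transcription factor AP-1, ranged from 44.9 to 143 CPM (median 85.6) in V1 and from 5.88 to 28.9 CPM (median 15.7) in S1 of 9 animals. Every one of these V1 libraries was above every S1 library, and P22 had the opposite order. Over all 10 animals the level was 80.6 ± 41.2 CPM in V1 and 18.6 ± 11.2 CPM in S1 (mean and SD, n = 10 each). The log2 difference was 2.51 (SE 0.134, adjusted p = 6.24e-07), a fold of 5.68, and 2.17 (adjusted p = 0.0233) in 10 animals. With the glial score in the fit it was 2.85 (SE 0.522) in 9 animals and -0.20 in 10, and neither passed.

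Fosb (ENSMUSG00000003545, chromosome 7, 19302696 to 19310051, minus strand), the Fos paralog with the largest difference of the named genes, ranged from 27.7 to 80.2 CPM (median 43.4) in V1 and from 4.06 to 13.5 CPM (median 6.07) in S1. The V1 and S1 ranges did not overlap, and P22 held 2.50 and 28.6 CPM. Its difference was 2.81 (SE 0.166, adjusted p = 1.22e-06), and 2.44 (adjusted p = 0.0208) in 10 animals. The third Fos family gene of the list, Fosl2, differed by 1.83 (adjusted p = 2.39e-04) and 1.53 (adjusted p = 0.0358), from medians of 91.8 CPM in V1 and 24.6 CPM in S1.

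The other transcription factors of the list went the same way. Npas4 (ENSMUSG00000045903, chromosome 19, 4984355 to 4990316, minus strand), a neuronal factor switched on by calcium entry, ranged from 6.02 to 36.5 CPM (median 15.6) in V1 and from 2.03 to 8.89 CPM (median 3.26) in S1. Its V1 and S1 ranges overlapped, but V1 was the higher library in each of the 9 animals and in none of them the lower. The difference was 2.0 (SE 0.158, adjusted p = 1.51e-06), and 1.78 (adjusted p = 0.0149) in 10.

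The orphan nuclear receptors of the NR4A family were all higher in V1. Nr4a1 ranged from 36.8 to 181 CPM (median 83.7) in V1 and from 13.1 to 49.03 CPM (median 23.00) in S1, a difference of 1.74 (adjusted p = 1.14e-05). Nr4a3 differed by 2.34 (adjusted p = 7.00e-05) and Nr4a2 by 1.43 (adjusted p = 7.13e-04). In 10 animals the differences were 1.48, 2.0 and 1.20.

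The EGR zinc-finger factors followed. Egr1 was abundant and ranged from 159.9 to 430.0 CPM (median 277) in V1 and from 56.3 to 133 CPM (median 83.5) in S1, with a difference of 1.59 (adjusted p = 1.25e-05). Egr2, at medians of 5.95 CPM in V1 and 1.08 CPM in S1, differed by 2.23 (adjusted p = 3.37e-08). Egr3 differed by 1.16 (adjusted p = 9.17e-04) and Egr4 by 1.79 (adjusted p = 4.90e-09). All 4 passed in 10 animals as well, with differences of 1.35, 1.99, 0.96 and 1.49. Junb, a partner of FOS in AP-1, differed by 1.20 (adjusted p = 1.61e-09). Its values with the glial score were 1.33 (SE 0.233) in 9 animals and 0.16 in 10, and neither passed.

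The remaining members of the list, among them genes that act at synapses or in signalling, were also higher in V1 for the most part. Bdnf, a neurotrophin, ranged from 3.91 to 8.20 CPM (median 5.32) in V1 and from 1.93 to 3.32 CPM (median 2.67) in S1, and its areas did not overlap in 9 animals. Its difference was 1.01 (adjusted p = 4.96e-05), and 0.79 (adjusted p = 0.0395) in 10. Arc, which drives removal of AMPA receptors, differed by 1.03 (adjusted p = 0.0024), and Nptx2, a secreted pentraxin that gathers AMPA receptors on PV cells, by 1.17 (adjusted p = 1.29e-05). The phosphatase gene Dusp1 differed by 0.90 (adjusted p = 1.07e-08), the clock and activity gene Per1 by 0.97 (adjusted p = 2.23e-06), Ier2 by 1.01 (adjusted p = 2.24e-08), Btg2 by 1.54 (adjusted p = 3.26e-05) and the scaffold gene Homer1 by 0.45 (adjusted p = 0.0105). Vgf, a secretory granule protein, differed by 0.68 (adjusted p = 9.70e-04) but missed the threshold in 10 animals (0.52, adjusted p = 0.0752).

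Lower members were Gadd45b, with -0.34 (adjusted p = 0.0056), and the kinase gene Pim1, with -0.30 (adjusted p = 0.0039). Rheb, a GTPase that activates mTOR complex 1, was also lower in V1 (-0.17, adjusted p = 0.0142). Ier5, at medians of 21.2 CPM in V1 and 22.8 CPM in S1, was the 1 member that did not pass (0.03, adjusted p = 0.691).

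**Figure D2:**
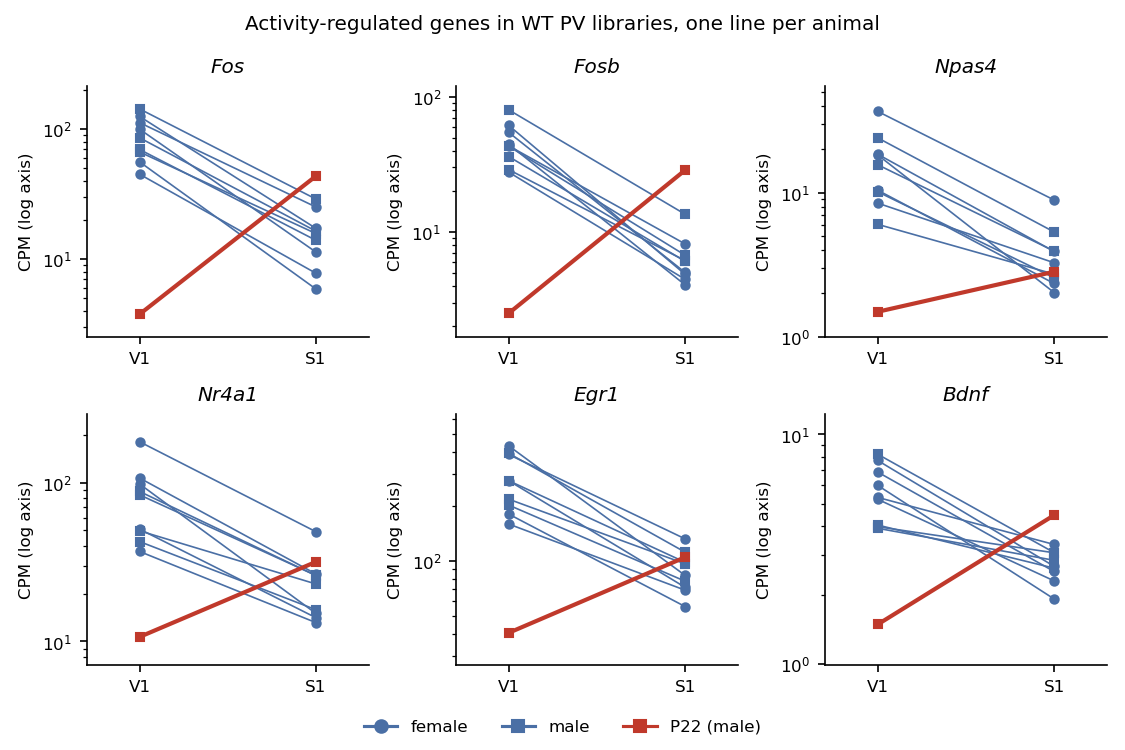
CPM (log axis) of 6 activity-regulated genes in V1 and S1, with 1 line per animal, circles for females and squares for males. The 9 blue lines fall from V1 to S1 in every panel, and the red line of P22 rises, from 3.76 to 43.5 CPM for Fos.

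Other genes strongly higher in V1 had varied roles. Tent5a, a poly(A) polymerase gene, differed by 1.93 (adjusted p = 3.09e-06), and the cell cycle inhibitor gene Cdkn1a, whose medians were 10.2 CPM in V1 and 2.26 CPM in S1, by 1.70 (adjusted p = 2.26e-06). Atp2b4, a plasma membrane calcium pump, ranged from 25.3 to 58.7 CPM (median 46.7) in V1 and from 13.2 to 18.9 CPM (median 15.9) in S1, a difference of 1.48 (adjusted p = 3.26e-06). Gnb4, a G protein beta subunit that also marks claustrum, ranged from 6.28 to 12.7 CPM (median 9.70) in V1 and from 1.89 to 4.19 CPM (median 3.03) in S1 without overlap, a difference of 1.49 (adjusted p = 2.26e-06). In 10 animals these differences were 1.60, 1.36, 1.27 and 1.23, and each passed.

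The X-inactivation RNA Xist, present in females only, was higher in V1 in 5 of 5 females, with 147.3 to 426.2 CPM in V1 and 45.43 to 111.1 CPM in S1. Its difference was 1.69 (adjusted p = 0.0048) with males in the fit. Nuclear RNAs as a group were higher in V1, and they are given further on.

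The 5 genes with the smallest p among those higher in V1 in 10 animals were mostly low. They were Ccn1, a matricellular protein (1.96, adjusted p = 0.0138), Efcab6 (1.45, adjusted p = 0.0138), BC006965 (1.76, adjusted p = 0.0138), Gm42853 (1.19, adjusted p = 0.0138) and Gm37903 (0.88, adjusted p = 0.0138). Median V1 levels in 9 animals were between 0.672 CPM for BC006965 and 3.12 CPM for Ccn1. All 5 passed without P22 as well, where Efcab6 differed by 1.59, Ccn1 by 2.11, BC006965 by 1.88, Gm42853 by 1.22 and Gm37903 by 0.90.

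Genes lower in V1 and higher in S1 were led by Spp1 (ENSMUSG00000029304, chromosome 5, 104435118 to 104441050, plus strand), which encodes the secreted phosphoprotein osteopontin. It ranged from 1.38 to 6.45 CPM (median 2.74) in V1 and from 12.2 to 18.4 CPM (median 15.9) in S1. The areas did not overlap in 9 animals, while the P22 libraries labelled V1 and S1 held 20.03 and 5.24 CPM. The difference was -2.46 (SE 0.155, adjusted p = 1.58e-07), which is 5.51-fold higher in S1, and -2.12 (adjusted p = 0.0167) in 10 animals. With the glial score it was -3.02 (SE 0.568) in 9 animals and -0.35 in 10, and neither passed.

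Sv2c, a synaptic vesicle glycoprotein, ranged from 4.78 to 7.67 CPM (median 5.997) in V1 and from 12.8 to 26.2 CPM (median 18.2) in S1, a difference of -1.63 (SE 0.083, adjusted p = 1.53e-09). Trarg1, a regulator of glucose transporter trafficking, differed by -1.54 (adjusted p = 3.18e-09). Both sets of ranges were free of overlap. In 10 animals the values were -1.32 (adjusted p = 0.0349) and -1.30 (adjusted p = 0.0150).

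Ion channel subunits stood among the largest differences toward S1. Kcng4 (ENSMUSG00000045246, chromosome 8, 119623854 to 119635680, minus strand), a modifier subunit that joins Kv2 potassium channels, ranged from 52.1 to 102 CPM (median 70.8) in V1 and from 184 to 232 CPM (median 205) in S1. Its difference was -1.48 (SE 0.106, adjusted p = 4.68e-06), a fold of 2.79, and -1.25 (adjusted p = 0.0187) in 10 animals. Scn4b (ENSMUSG00000046480, chromosome 9, 45138395 to 45154152, plus strand), the sodium channel beta subunit tied to resurgent current, ranged from 104 to 153 CPM (median 127) in V1 and from 287 to 336 CPM (median 316) in S1. Its difference was -1.35 (SE 0.051, adjusted p = 4.75e-10), and -1.11 (adjusted p = 0.0227) in 10. No V1 library of the 9 animals reached the lowest S1 library for either subunit.

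Sema3e, a secreted guidance protein, ranged from 31.1 to 44.04 CPM (median 38.7) in V1 and from 72.4 to 96.3 CPM (median 90.6) in S1 without overlap, a difference of -1.21 (adjusted p = 6.61e-10). Tesc and S100b, which encode calcium-binding proteins, differed by -1.12 (adjusted p = 6.06e-06) and -1.06 (adjusted p = 3.85e-07). S100b is also a known astrocyte gene, and its sign was opposite to that of most astrocyte markers here. Doc2g, a C2-domain protein of the DOC2 family, differed by -1.08 (adjusted p = 3.45e-08) and the oxygen-sensing hydroxylase gene Egln3 by -1.11 (adjusted p = 7.25e-08). The forkhead factor gene Foxj1 differed by -1.01 (adjusted p = 1.81e-08), the olfactomedin gene Olfm3 by -1.01 (adjusted p = 1.01e-09), Ugt8a, the galactosylceramide synthase of myelin lipid, by -1.0 (adjusted p = 2.14e-07) and Medag by -0.96 (adjusted p = 9.74e-08). Gm26673, annotated as an antisense RNA, differed by -1.11 (adjusted p = 4.37e-09), and reads of its opposite-strand partner cannot be told from its own with this kit. All of these genes passed in 10 animals too, with differences between -0.99 (Sema3e) and -0.77 (Medag).

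The 5 genes with the smallest p toward S1 in 10 animals had small differences and nearly equal values in both P22 libraries. Fgfr1op, a centrosomal gene, differed by -0.34 (adjusted p = 0.0149), Abtb2 by -0.34 (adjusted p = 0.0149), Homez by -0.35 (adjusted p = 0.0149), the Golgi GTPase gene Arl1 by -0.29 (adjusted p = 0.0149) and the mitochondrial lipid transfer gene Prelid3b by -0.31 (adjusted p = 0.0149). Arl1 for example lay at 136 and 129 CPM in the P22 libraries labelled V1 and S1 and at medians of 108 CPM in V1 and 133 CPM in S1 elsewhere. Without P22 the 5 differences were -0.37, -0.38, -0.39, -0.33 and -0.35, in the same order.

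**Figure D3:**
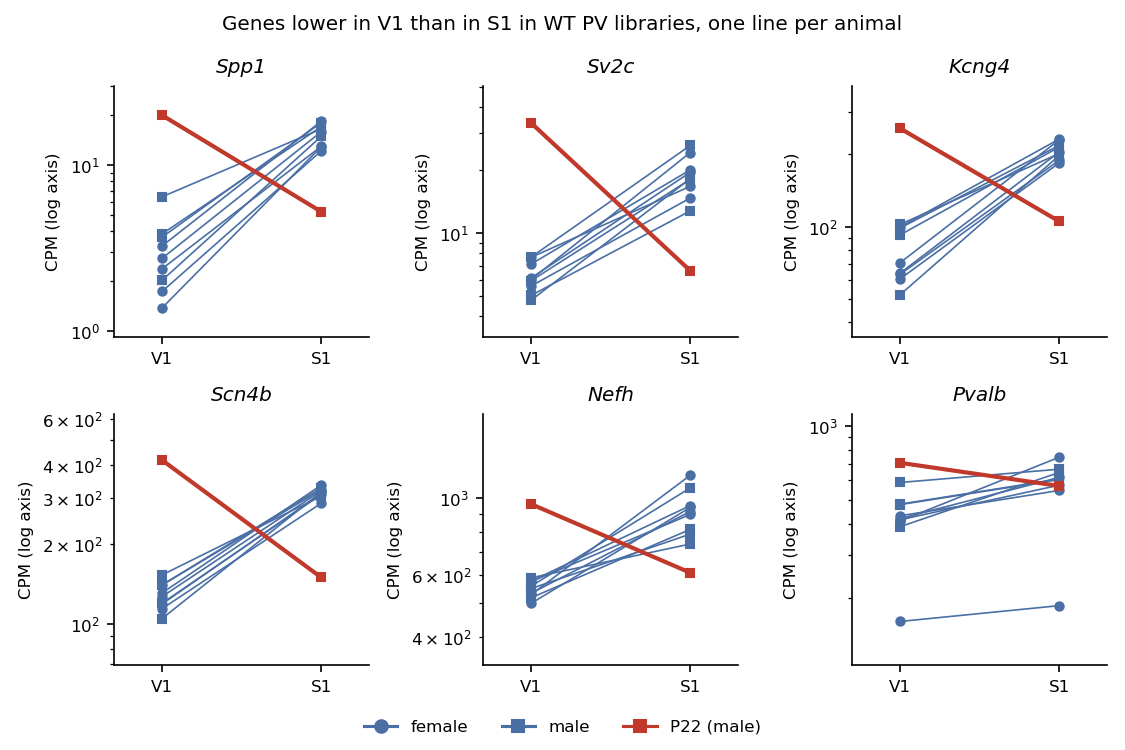
CPM (log axis) of 6 genes called lower in V1, with 1 line per animal as circles (females) and squares (males). All 9 blue lines rise from V1 to S1, the red line of P22 falls in each panel, and the lowest Pvalb pair, at 161 and 187 CPM, is animal P3.

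Voltage-gated potassium channel genes were split between the areas. Of 46 tested, 16 were higher and 19 lower in V1 in 9 animals (14 and 14 in 10), with a median of 0.03. The summed level was nonetheless lower in V1 in all 9 animals, at 9448 to 11330 CPM (median 10070) against 11150 to 13120 CPM (median 12470). Abundant members such as Kcnc1 and Kcnab2 were among the lower ones.

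Kcnc1, a Kv3 subunit of fast-spiking cells, ranged from 1591 to 2038 CPM (median 1674) in V1 and from 2006 to 2316 CPM (median 2172) in S1, with a slight overlap (-0.35, adjusted p = 2.26e-06). Kcnc2, which also encodes a Kv3 subunit of PV cells, went the other way with 0.34 (adjusted p = 9.96e-07) and medians of 937 CPM in V1 and 758 CPM in S1.

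Subunits that modify channels went both ways. Among the lower ones, Kcnip1, which binds Kv4 channels, differed by -0.59 (adjusted p = 3.40e-08), the silent subunit gene Kcns1 by -0.56 (adjusted p = 1.54e-07) and the beta subunit gene Kcnab2 by -0.41 (adjusted p = 8.44e-07). The ranges of these 3 did not overlap. Kcna1, a Kv1 channel of axons, differed by -0.46 (adjusted p = 0.0014) in 9 animals and did not pass in 10 (-0.34, adjusted p = 0.0887).

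Higher in V1 were Kcna6, a further Kv1 gene, which ranged from 148 to 191 CPM (median 163) in V1 and from 80.7 to 100.1 CPM (median 85.2) in S1 without overlap (0.85, adjusted p = 4.75e-10), the silent subunit gene Kcnf1 (0.92, adjusted p = 1.10e-07), the A-type channel gene Kcnd3 (0.84, adjusted p = 2.73e-07) and Kcna3 (1.15, adjusted p = 1.78e-05). In 10 animals their differences were 0.67, 0.76, 0.69 and 0.98, and all 4 passed.

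Of 33 sodium, calcium and HCN channel genes tested, 13 were higher and 10 lower in V1 in 9 animals (12 and 6 in 10). Besides Scn4b, the axonal sodium channel gene Scn8a (-0.23, adjusted p = 4.11e-05), the T-type calcium channel gene Cacna1i (-0.35, adjusted p = 1.24e-06) and the pacemaker channel gene Hcn2 (-0.30, adjusted p = 5.05e-04) were lower in V1. On the other side, Scn3b, a beta subunit, ranged from 13.5 to 22.9 CPM (median 20.2) in V1 and from 5.40 to 7.90 CPM (median 6.65) in S1 without overlap (1.48, adjusted p = 2.68e-08). Scn2a, a main sodium channel of excitatory axons, differed by 0.78 (adjusted p = 1.72e-06) and the TARP gene Cacng3 by 0.75 (adjusted p = 3.84e-07). These 6 also passed in 10 animals.

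Neurofilament genes, a list added after the values were seen, were lower in V1 with 1 exception. The light chain gene Nefl differed by -0.40 (adjusted p = 5.11e-07), the medium chain gene Nefm by -0.84 (adjusted p = 1.12e-07), the heavy chain gene Nefh by -0.77 (adjusted p = 9.27e-06) and Ina by -0.31 (adjusted p = 4.54e-06). Nefm ranged from 254 to 308 CPM (median 285) in V1 and from 411 to 622 CPM (median 473) in S1, and none of the 4 had overlapping areas in 9 animals. Vim, an intermediate filament of glia and vessels at medians of 2.70 CPM in V1 and 1.79 CPM in S1, differed by 0.70 (adjusted p = 9.57e-04). In 10 animals the values were -0.32, -0.68, -0.63, -0.25 and 0.61, each passing. Of the 6 members 5 were tested, and their summed level was 1799 to 1978 CPM in V1 and 2364 to 3128 CPM in S1.

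Perineuronal net and matrix genes were mixed, with 11 of 25 tested higher and 6 lower in V1 in 9 animals (10 and 4 in 10). Components of the nets differed in both directions. Acan (ENSMUSG00000030607, chromosome 7, 79053483 to 79115099, plus strand), which encodes aggrecan, the core proteoglycan of nets, ranged from 49.95 to 83.4 CPM (median 62.6) in V1 and from 90.3 to 126 CPM (median 112) in S1 without overlap. Its difference was -0.83 (SE 0.055, adjusted p = 3.50e-08), and -0.65 (adjusted p = 0.0318) in 10 animals. The link protein genes Hapln1 (-0.48, adjusted p = 2.45e-06) and Hapln4 (-0.41, adjusted p = 5.26e-07) and the matrix glycoprotein gene Reln (-0.49, adjusted p = 9.45e-05) were lower as well. The proteoglycan genes Ncan (0.27, adjusted p = 9.21e-04) and Vcan (0.67, adjusted p = 0.0229) were higher. Other members higher in V1 were the protease inhibitor gene Timp2 (0.70, adjusted p = 1.46e-08) and genes known from glia, Tnc (1.34, adjusted p = 0.0010) and Ptprz1 (1.05, adjusted p = 0.0213). With the glial score the values in 9 animals were -0.13 for Tnc, -0.68 for Ptprz1, 0.70 for Timp2, -0.15 for Ncan, -0.88 for Vcan and -0.48 for Acan. In 10 animals they were 0.03, 0.19, -0.10, 0.07, 0.25 and 0.15, and none passed in either fit. Vcan is itself a member of the glial score, so part of its shift is built in.

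Markers of PV interneurons did not move as a block. Of 18 tested, 4 were higher and 9 lower in V1 in 9 animals (3 and 9 in 10), and the median was -0.07. Their summed level was lower in V1 in 9 of 9 animals, at medians of 15330 CPM and 17600 CPM, with overlapping ranges. Pvalb was lower in V1 in 9 of 9 animals, from 161 to 589 CPM (median 421) in V1 and from 187 to 745 CPM (median 608) in S1, a difference of -0.48 (SE 0.073, adjusted p = 3.59e-04), and -0.40 (adjusted p = 0.0188) in 10. Adding the glial score gave 0.00 (SE 0.222) in 9 animals and 0.00 in 10. Animal P3 had the lowest Pvalb of all in both areas, at 161 and 187 CPM, and Pvalb in the other V1 libraries was 389.6 CPM or more.

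Syt2, the calcium sensor of release at PV terminals, ranged from 1245 to 1663 CPM (median 1344) in V1 and from 1795 to 2115 CPM (median 1984) in S1, a difference of -0.53 (adjusted p = 5.97e-08). The cytochrome oxidase isoform gene Cox6a2 (-0.49, adjusted p = 5.24e-04), the ankyrin gene Ank1 (-0.42, adjusted p = 3.70e-07) and the GABA synthesis gene Gad1 (-0.24, adjusted p = 7.06e-05) were lower too. Gad2, the other GABA synthesis gene, was higher in V1 (0.23, adjusted p = 4.18e-04), as was the neuregulin receptor gene Erbb4 (0.29, adjusted p = 0.0022). Gad1 and Gad2 thus differed in opposite directions, by about equal steps, and with the glial score they were 0.04 and 0.36 in 9 animals and -0.00 and 0.04 in 10. The vesicular GABA transporter gene Slc32a1 (-0.15, adjusted p = 0.0090) was slightly lower in V1. Lhx6, the factor of interneurons born in the medial ganglionic eminence, was at medians of 234 CPM in V1 and 221 CPM in S1, and its difference of 0.04 (adjusted p = 0.338) did not pass.

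Markers of other interneurons were low next to those of PV cells. Of 13 Vip and Lamp5 cell markers, 9 were higher and 2 lower in V1 in 9 animals (6 and 1 in 10), with a median of 0.67, although their sum was 183.2 to 248.0 CPM in V1 and 190.9 to 233.0 CPM in S1. Of 11 Sst cell markers 5 were higher and 2 lower (1 and 2 in 10). Sst itself lay at medians of 17.9 CPM in V1 and 24.5 CPM in S1 and did not pass (-0.30, adjusted p = 0.239). Of 4 chandelier cell markers tested, 2 were higher and 0 lower (2 and 0 in 10).

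GABA receptor and synapse genes had 7 of 27 higher and 10 lower in V1 in 9 animals (5 and 7 in 10), against 20.8% and 21.3% of all genes in 9, so that the share higher was near that of all genes. Gabra5, a subunit of extrasynaptic receptors, ranged from 8.18 to 12.2 CPM (median 10.2) in V1 and from 15.7 to 19.3 CPM (median 16.2) in S1 without overlap (-0.78, adjusted p = 9.47e-08). Gabrd, the delta subunit found on PV cells, differed by -0.34 (adjusted p = 3.26e-05). Higher in V1 were Gabra2 (0.59, adjusted p = 1.68e-05) and Gabrb1 (0.74, adjusted p = 2.24e-06), each without overlap of the areas.

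Of 24 glutamate receptor genes tested, 13 were higher and 6 lower in V1 (11 and 3 in 10). Grm5, a group I metabotropic receptor, was higher in V1 without overlap of the areas (0.44, adjusted p = 1.15e-06). Among ionotropic subunits the AMPA receptor gene Gria1 was higher in V1 (0.27, adjusted p = 3.26e-05) and the NMDA receptor gene Grin2a lower (-0.44, adjusted p = 1.25e-05). In 10 animals these values were 0.37, 0.21 and -0.34, and all passed.

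Of 30 acetylcholine and monoamine receptor genes tested, 9 were higher and 7 lower in V1 (6 and 2 in 10), and the share lower in 9 animals was near the 21.3% of all genes. The histamine receptor genes differed in opposite directions, Hrh3 by -0.61 (adjusted p = 3.40e-08), at medians of 181 CPM in V1 and 274 CPM in S1, and Hrh1 by 1.33 (adjusted p = 7.66e-06), at medians of 3.11 CPM in V1 and 1.35 CPM in S1. The serotonin receptor gene Htr2a (0.61, adjusted p = 7.91e-06) and the muscarinic receptor gene Chrm1 (0.35, adjusted p = 2.24e-06) were higher in V1. The nicotinic receptor gene Chrna7 was lower (-0.63, adjusted p = 2.26e-05), and in 10 animals it missed the threshold (-0.46, adjusted p = 0.0806).

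Of 20 neuropeptide genes, 9 were higher and 5 lower in V1 (4 and 4 in 10). Cartpt, a peptide precursor, ranged from 7.72 to 13.7 CPM (median 10.4) in V1 and from 3.54 to 6.26 CPM (median 4.26) in S1 without overlap (1.22, adjusted p = 5.01e-07). Vip (1.12, adjusted p = 2.87e-05) and Crh (1.23, adjusted p = 1.32e-04), peptides of another interneuron class, were higher from V1 medians of 2.31 and 1.27 CPM. The granin gene Scg2 differed by 0.58 (adjusted p = 3.18e-05) and missed the threshold in 10 animals (0.44, adjusted p = 0.0593). Npy (-0.58, adjusted p = 0.0141) and Pdyn (-0.63, adjusted p = 0.0041) were lower in V1. Of 25 peptide receptor genes, 9 were higher and 2 lower (8 and 0 in 10), among the higher ones the somatostatin receptor gene Sstr2 (0.98, adjusted p = 1.62e-05) and the neurotensin receptor gene Ntsr1 (1.78, adjusted p = 1.40e-05), whose V1 median was 1.27 CPM.

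Vesicle release genes were split as well, with 18 of 41 higher and 13 lower in V1 (13 and 9 in 10). Vamp1, the vesicle SNARE of fast-spiking cells, ranged from 765 to 1198 CPM (median 965) in V1 and from 1379 to 1687 CPM (median 1515) in S1 without overlap (-0.70, adjusted p = 1.46e-08). Syt1, the general fast calcium sensor, was higher in V1 and ranged from 1920 to 2113 CPM (median 1985) in V1 and from 1420 to 1720 CPM (median 1577) in S1 (0.33, adjusted p = 7.12e-07). The difference of Syt1 was thus opposite to that of Syt2. Syt5 (1.01, adjusted p = 9.74e-08) and Doc2a (1.08, adjusted p = 4.21e-06) were also higher in V1, at medians of 21.7 and 6.24 CPM there. In 10 animals the 4 values were -0.57, 0.27, 0.86 and 0.95, all passing.

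Calcium-binding protein genes, Pvalb among them, included 7 higher and 11 lower of 22 tested (4 and 9 in 10). Hpcal4, a visinin-like sensor, ranged from 86.9 to 155 CPM (median 107) in V1 and from 49.8 to 72.3 CPM (median 54.4) in S1 (1.08, adjusted p = 1.66e-05), and Necab1 differed by 1.17 (adjusted p = 1.32e-06), neither with overlap. Calb1, calbindin, differed by 0.55 (adjusted p = 2.72e-05) and did not pass in 10 (0.40, adjusted p = 0.0909). Cabp1, caldendrin, was lower in V1 (-0.44, adjusted p = 3.91e-07).

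Among the called guidance and adhesion genes, more were higher in V1 than lower. Of 18 Eph receptors and ephrins, 12 were higher and 0 lower (9 and 0 in 10), with a median of 0.28. Their sum was higher in V1 in 9 of 9 animals. The ephrin genes Efnb3 (0.70, adjusted p = 6.14e-06) and Efnb2 (0.48, adjusted p = 4.12e-06) were among them, and with the glial score Efnb3 was -0.01 and Efnb2 0.34 in 9 animals, and -0.24 and 0.06 in 10.

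Of 31 semaphorins, plexins and neuropilins, 15 were higher and 3 lower (12 and 2 in 10). Sema3e and Sema7a were among the lower ones, and the summed level was lower in V1 in 9 of 9 animals, at medians of 1701 and 1838 CPM. Sema7a, a membrane-anchored semaphorin, ranged from 247 to 331 CPM (median 314) in V1 and from 484 to 598 CPM (median 516) in S1 without overlap (-0.81, adjusted p = 3.71e-09). Among the higher ones were Sema3d, at medians of 1.76 CPM in V1 and 0.551 CPM in S1 (1.64, adjusted p = 3.59e-06), and the plexin gene Plxna3 (0.84, adjusted p = 5.32e-07). Of 24 slits, netrins and receptors 11 were higher and 3 lower (5 and 1 in 10), with Slit3 at 0.86 (adjusted p = 4.18e-06).

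Synaptic adhesion genes had 23 of 51 members higher and 6 lower in V1 (15 and 3 in 10). Tenm2, a teneurin, ranged from 103 to 170.1 CPM (median 153) in V1 and from 55.8 to 73.3 CPM (median 65.01) in S1 (1.14, adjusted p = 6.61e-10), and all V1 libraries of 9 animals were above all S1 libraries. The neuronal pentraxin receptor gene Nptxr, whose partner Nptx2 was also higher in V1, differed by 0.68 (adjusted p = 7.67e-08) and the contactin gene Cntn5 by 0.58 (adjusted p = 1.38e-05). Clstn2, a calsyntenin adhesion protein, was lower in V1, from 211 to 250.1 CPM (median 221) in V1 and from 306 to 379 CPM (median 334) in S1 (-0.62, adjusted p = 6.61e-10). In 10 animals these differences were 0.94, 0.56, 0.48 and -0.50. Of 16 cadherins 8 were higher and 3 lower (5 and 1 in 10), and of 11 non-clustered protocadherins 6 and 1 (3 and 1 in 10).

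Growth factor genes included 19 higher and 11 lower of 47 (17 and 6 in 10). Igf2 (0.96, adjusted p = 3.85e-06) and the WNT modulator gene Dkk3 (0.73, adjusted p = 3.67e-07) were higher in V1 without overlap. Bmp4 (-1.13, adjusted p = 1.50e-05), the neurotrophin gene Ntf3 (-0.91, adjusted p = 6.24e-04) and Fgf18 (-0.73, adjusted p = 8.67e-06) were lower. Bmp4 ranged from 1.33 to 3.31 CPM (median 1.98) in V1 and from 3.73 to 6.15 CPM (median 4.95) in S1, and P22 had 5.65 and 2.37 CPM.

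Transcription factors that pattern cortical areas in development were mostly of small difference. Of 30 tested, 11 were higher and 6 lower in V1 in 9 animals (10 and 0 in 10), with a median of 0.15. Lhx2 differed by 0.77 (adjusted p = 2.08e-04) and Pax6 by 0.94 (adjusted p = 0.0028), and Pax6 lay near 1 to 2 CPM, at medians of 2.02 CPM in V1 and 0.890 CPM in S1. Of 24 interneuron lineage factors 8 were higher and 8 lower (4 and 5 in 10). Dlx1 was lower in V1 (-0.37, adjusted p = 9.38e-06) and the ETS factor gene Etv1, also a layer 5 marker, higher (0.32, adjusted p = 4.13e-04). Pou3f1, a POU factor of layer 5 projection cells, ranged from 2.34 to 4.61 CPM (median 3.70) in V1 and from 5.83 to 16.5 CPM (median 10.5) in S1, a difference of -1.49 (adjusted p = 5.97e-07) in 9 animals that missed the threshold in 10 (-1.17, adjusted p = 0.0518). The P22 libraries labelled V1 and S1 held 20.2 and 3.90 CPM of it. Rorb, which marks layer 4, was lower in V1 in 9 animals (-0.50, adjusted p = 0.0182) and did not pass in 10 (-0.35, adjusted p = 0.208).

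Of 36 G protein subunit and RGS genes, 16 were higher and 6 lower in V1 (12 and 3 in 10), among them Gnb4. Genes of the circadian clock had 6 higher and 9 lower of 18 (4 and 3 in 10). Heat shock genes had 6 higher and 7 lower of 25 (2 and 3 in 10), shares near those of all genes. Of 19 cholesterol synthesis genes 5 were higher and 0 lower (2 and 0 in 10), and the share higher was near the 20.8% of all genes in 9 animals and 12.6% in 10.

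Nuclear-encoded oxidative phosphorylation genes, the subunits of the respiratory chain and ATP synthase, were lower in V1 nearly throughout. Of 76 tested, 0 were higher and 71 lower in 9 animals (0 and 68 in 10), and the median was -0.29 (-0.25 in 10). The shift was small in each gene, with no member free of overlap. Ndufb5, a complex I subunit, ranged from 106 to 149.7 CPM (median 121) in V1 and from 129.6 to 178 CPM (median 151) in S1, a difference of -0.30 (SE 0.051, adjusted p = 2.98e-04), and -0.26 (adjusted p = 0.0150) in 10. Atp5e, of ATP synthase, differed by -0.34 (adjusted p = 3.87e-04). The animals were not alike in this list. Its mean difference was -0.55 in P4 and -0.47 in P2, but 0.02 in P21, -0.03 in P27 and -0.01 in P22. With the glial score Ndufb5 and Atp5e were 0.06 and 0.06 in 9 animals, and -0.05 and -0.11 in 10.

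The 13 genes encoded by mitochondrial DNA were on the opposite side, with 8 higher and 0 lower in V1 in 9 animals (6 and 0 in 10) and a median of 0.85. Their sum varied widely among libraries, from 9476 to 53560 CPM in V1 and from 9599 to 34520 CPM in S1, so the areas overlapped. mt-Co2, a cytochrome oxidase subunit, ranged from 1009 to 5019 CPM (median 3625) in V1 and from 817 to 3614 CPM (median 1373) in S1 (0.78, adjusted p = 0.0252). The list's mean difference ran from -0.10 in P26 to 2.22 in P3. Cytosolic ribosomal protein genes had 6 of 78 higher and 9 lower (0 and 4 in 10), and a median of -0.02. Both shares were below the 20.8% and 21.3% of all genes in 9 animals. Rpl22, the tagged gene, was at medians of 37.9 CPM in V1 and 42.3 CPM in S1 (-0.17, adjusted p = 0.0063).

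**Figure D4:**
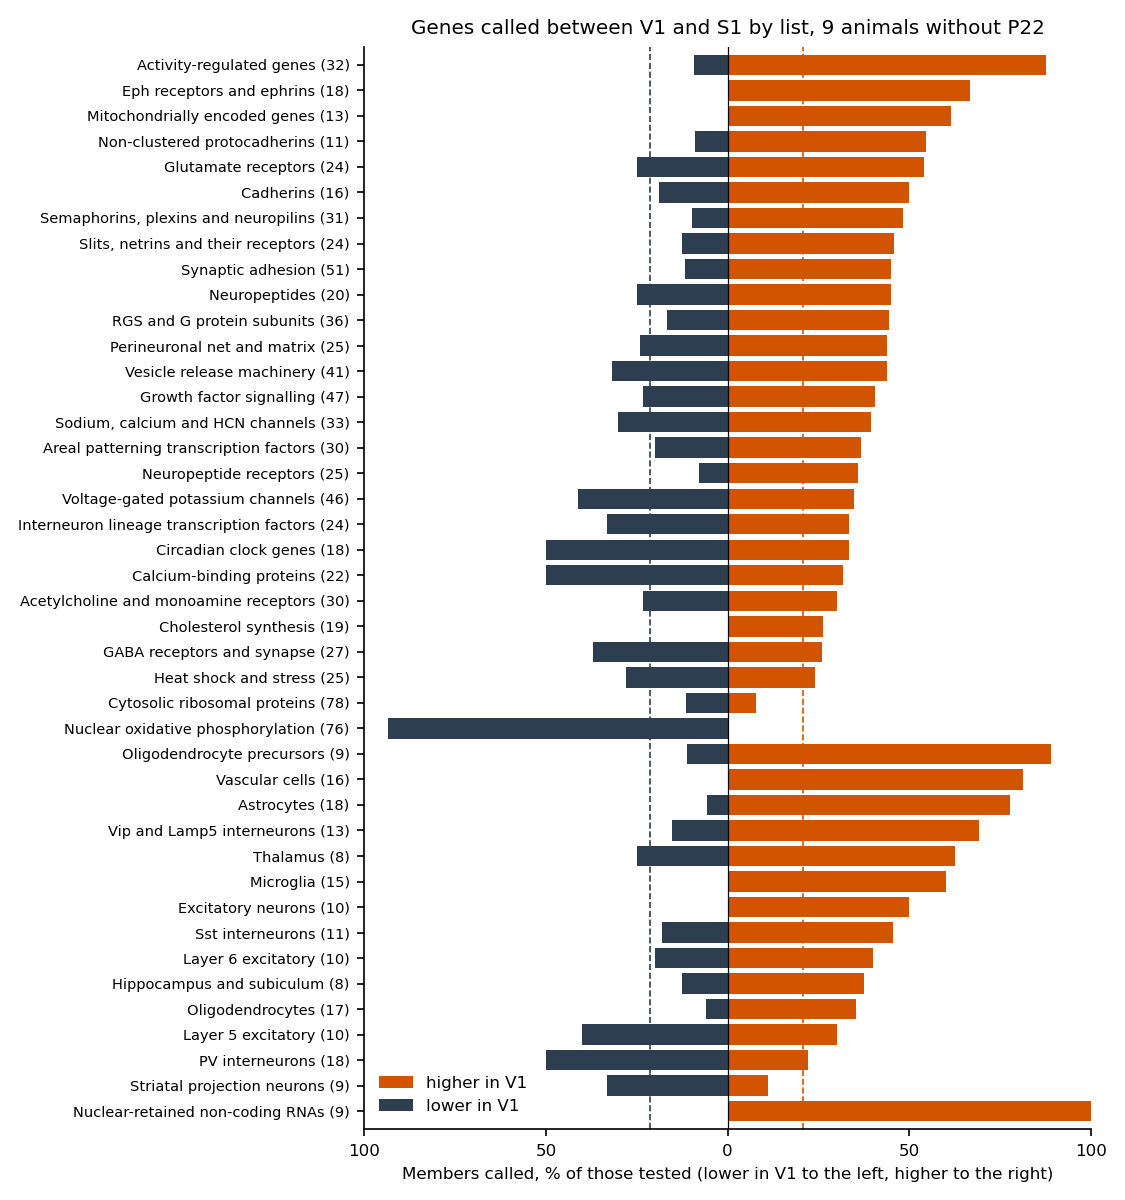
Percentage of the tested members of each list (number in brackets) called higher in V1, to the right, or lower, to the left, in the 9 animals without P22, for lists of at least 8 tested members. Dashed lines mark the shares among all tested genes, 20.8% higher and 21.3% lower; activity-regulated genes reach 28 of 32 to the right and nuclear oxidative phosphorylation 71 of 76 to the left.

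Most called markers of non-neuronal cells were higher in V1. Of 18 astrocyte markers 14 were higher and 1 lower (10 and 1 in 10), with a median of 0.44. The sum ranged from 1012 to 1359 CPM (median 1198) in V1 and from 873.0 to 1061 CPM (median 977.1) in S1. Slc1a2, the main glutamate transporter of astrocytes, made up a large part of this sum and ranged from 268 to 518 CPM (median 425) in V1 and from 201 to 317 CPM (median 242) in S1 (0.61, adjusted p = 0.0011). Defining astrocyte genes were low, Gfap at medians of 9.93 CPM in V1 and 5.88 CPM in S1 (0.69, adjusted p = 5.09e-05) and Aqp4 at medians of 5.999 CPM in V1 and 4.05 CPM in S1 (0.44, adjusted p = 0.0018). Gja1, a gap junction gene of astrocytes, differed by 0.59 (adjusted p = 2.57e-05). In 10 animals Gfap (0.52, adjusted p = 0.0589) and Aqp4 (0.30, adjusted p = 0.124) missed the threshold.

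The sums of the other marker lists had the same direction. Oligodendrocyte precursor markers, with 8 of 9 higher and 1 lower (7 and 1 in 10), summed to 26.64 to 57.14 CPM in V1 and 25.22 to 37.21 CPM in S1, with Pdgfra at 0.91 (adjusted p = 4.55e-05). Microglia markers, with 9 of 15 higher and 0 lower (6 and 0 in 10), summed to 50.55 to 69.47 and 40.8 to 54.19 CPM, with Csf1r at 0.60 (adjusted p = 1.54e-04) and Cx3cr1 at 0.49 (adjusted p = 0.0086), which missed the threshold in 10 animals (0.41, adjusted p = 0.0520). Vascular markers, with 13 of 16 higher and 0 lower (10 and 0 in 10), summed to 29.18 to 77.43 and 22.48 to 30.61 CPM, with Cldn5 at medians of 1.40 CPM in V1 and 1.22 CPM in S1. Oligodendrocyte markers, with 6 of 17 higher and 1 lower (1 and 1 in 10), summed to 637.3 to 1226 and 550.1 to 888.3 CPM. None of the markers named here was at 0 in any library of the 9 animals, and apart from Slc1a2 the highest value of any was 14.8 CPM, of Gfap. They are a few of each list, and no oligodendrocyte marker is among them. With 17 members summing to 637.3 CPM or more in V1, some oligodendrocyte markers lay above that value.

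Of 10 pan-excitatory markers, 5 were higher in V1 and 0 lower (5 and 0 in 10), and their sum was higher in V1 in 10 of 10 animals, P22 included. Slc17a7, the vesicular glutamate transporter of cortical excitatory cells, ranged from 139.9 to 351 CPM (median 251) in V1 and from 120.2 to 187 CPM (median 146) in S1 (0.61, adjusted p = 0.0025) and Camk2a from 749 to 1438 CPM (median 984) in V1 and from 644 to 844 CPM (median 746) in S1 (0.42, adjusted p = 0.0079). In 10 animals these differences were 0.58 and 0.37, and both passed. Layer 2/3 markers had 4 of 7 higher and 1 lower in 9 animals (3 and 1 in 10), and layer 4 markers 0 of 6 higher and 2 lower (0 and 1 in 10). Layer 5 markers had 3 of 10 higher and 4 lower (3 and 2 in 10), and layer 6 markers 4 of 10 higher and 2 lower (3 and 0 in 10). Claustrum, insula and retrosplenial markers, chosen for tissue next to the dissected areas, had 3 of 7 higher and 0 lower (3 and 0 in 10). Their sum was 127.6 to 179.0 CPM in V1 and 93.56 to 108.8 CPM in S1 of 9 animals, without overlap. Of these markers Nr4a2 is also in the activity-regulated list. Hippocampus and subiculum markers had 3 of 8 higher and 1 lower (2 and 1 in 10), their sum higher in V1 in 9 of 9 animals. Striatal projection neuron markers had 1 of 9 higher and 3 lower (0 and 0 in 10). Thalamus markers had 5 of 8 higher and 2 lower (4 and 1 in 10), their sum higher in V1 in 2 of 9.

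Long non-coding RNAs held in the nucleus, a list added after the values were seen, were all higher in V1 in 9 animals, with 9 of 9 called and a median of 0.85 (5 of 9 called in 10 animals). Malat1 ranged from 169 to 521 CPM (median 323) in V1 and from 98.5 to 300.3 CPM (median 141) in S1 (0.92, adjusted p = 0.0058), Meg3 from 739 to 2498 CPM (median 1521) in V1 and from 413 to 853 CPM (median 655) in S1 (0.96, adjusted p = 0.0055), and Kcnq1ot1 differed by 0.85 (adjusted p = 0.0035). Their summed level was 1570 to 5403 CPM in V1 and 901.7 to 1983 CPM in S1. The list's mean difference by animal ran from 0.14 in P18 to 2.05 in P4. The part of nuclear RNA in the other differences was not tested.

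Female and male animals were compared for the size of the area difference. The test of the difference by sex called 0 of 16717 genes in edgeR (1041 at an unadjusted p under 0.05), 1 with DESeq2 and 0 with limma-voom, and 0 of 16824 without P22 (750 at an unadjusted p under 0.05). Taken alone without P22, the 5 females gave 5613 called genes and the 4 males 1450. These counts rest on unequal numbers of animals, so the gap between them is no measure of a difference by sex.

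The same contrast in PV neurons of Fmr1 KO mice, which share no library with the WT mice, gave mostly the same directions as in WT. Among 9 KO animals 0 of 16153 genes (0.0%) were called in edgeR (4780 at an unadjusted p under 0.05), 2088 with DESeq2 and 14 with limma-voom. In P9 and P24, 40.5% and 36.2% of the 1886 genes called in WT with a log2 difference of at least 0.5 had the WT sign. P11, at 51.0%, and P23, at 65.7%, were intermediate, and the other 5 animals had 88.8% or more. Of 4236 genes called in the 10 WT animals, 98.4% had the same sign in the 9 KO animals. The share among all tested genes was not computed for these sets of animals. P9 and P24 were set aside for their signs, so agreement after that is in part built in. Without them, 4617 of 16130 genes (28.6%) were called, 2178 higher (13.5%) and 2439 lower (15.1%), and 3866 of them were also called in the 9 WT animals, all in the same direction. That is 57.5% of the WT calls and 83.7% of the KO calls. Of 6708 genes called in WT, 98.4% had the same sign in KO, against 85.8% of all genes tested.

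The leading WT genes had the same direction in these 7 KO animals. Fos differed by 2.10 (adjusted p = 2.20e-04), Fosb by 2.05 (adjusted p = 0.0034), Spp1 by -2.15 (adjusted p = 1.17e-06), Kcng4 by -1.69 (adjusted p = 7.30e-04), Scn4b by -1.34 (adjusted p = 2.39e-04) and Nefm by -0.88 (adjusted p = 1.66e-04). Of 32 activity-regulated genes 27 were higher and 2 lower, and of 76 nuclear oxidative phosphorylation genes 0 were higher and 69 lower. Xist, at -0.60, had the opposite sign to WT and did not pass. The genotype difference of the area effect was called for 0 of 16785 genes (0.0%) with edgeR (367 at an unadjusted p under 0.05), 0 with DESeq2 and 0 with limma-voom. Without P22, P9 and P24 it was called for 0 of 16831 (444 at an unadjusted p under 0.05).

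In WT Camk2a neurons the contrast called 7 of 15615 genes (0.0448%) in 7 animals and 5263 of 15607 (33.7%) without animal C24, 2655 higher (17.0%) and 2608 lower (16.7%). In C24, with an S1 library from a batch that holds no other library in the labels, 9.2% of 1222 strongly differing genes had the sign of the other 6 animals. These 6, from which the genes had been chosen, had 96.2% or more. Without P22 and C24, 2419 genes were called in both classes in the same direction and 383 in opposite directions, which is 35.9% and 46.0% of the PV and Camk2a calls for the former. Of 6405 genes called in PV, 74.2% had the same sign in Camk2a neurons, against 64.6% of all genes tested.

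The shared genes included many of the activity-regulated and channel genes. Fosb differed by 1.52 (adjusted p = 0.0207) in Camk2a neurons and Egr1 by 0.58 (adjusted p = 0.0018), and 25 of 32 activity-regulated genes were higher in V1 and 0 lower. Kcng4 differed by -1.28 (adjusted p = 2.27e-06) and Scn4b by -1.45 (adjusted p = 5.62e-08), both lower in V1 as in PV neurons. Nuclear oxidative phosphorylation genes had 6 of 76 higher and 10 lower, and astrocyte markers 2 of 18 higher and 4 lower. Of all genes tested 17.0% were higher and 16.7% lower. The oxidative phosphorylation counts lay below these shares and the astrocyte counts near them.

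The area effect differed between the classes for 257 of 17102 genes (1.5%) in all animals and for 3017 of 17156 (17.6%) without P22 and C24. The value of this test is PV minus Camk2a. Sema3e was lower in V1 in PV neurons and higher in Camk2a neurons (0.76, adjusted p = 6.51e-04), a difference of -1.98 (adjusted p = 4.19e-09) that did not pass in all animals (-1.53, adjusted p = 0.0533). Gnb4 was higher in V1 in PV neurons and lower in Camk2a neurons (-0.36, adjusted p = 0.0106), a difference of 1.85 (adjusted p = 5.73e-06) that also did not pass in all animals (1.52, adjusted p = 0.0539). Fos had a larger difference in PV neurons, by 1.77 (adjusted p = 6.38e-04), which did not pass in all animals (1.59, adjusted p = 0.189). Cartpt was higher in V1 in PV neurons and lower in Camk2a neurons, at -3.05, a difference of 4.29 (adjusted p = 1.38e-07). The 5 genes with the smallest p of this test in all animals were Ptges3 (-0.40, adjusted p = 0.0161), Sema3f (1.20, adjusted p = 0.0161), Gm1673 (-1.25, adjusted p = 0.0161), Ndufab1 (-0.85, adjusted p = 0.0161) and Lima1 (1.29, adjusted p = 0.0215).

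**Figure D5:**
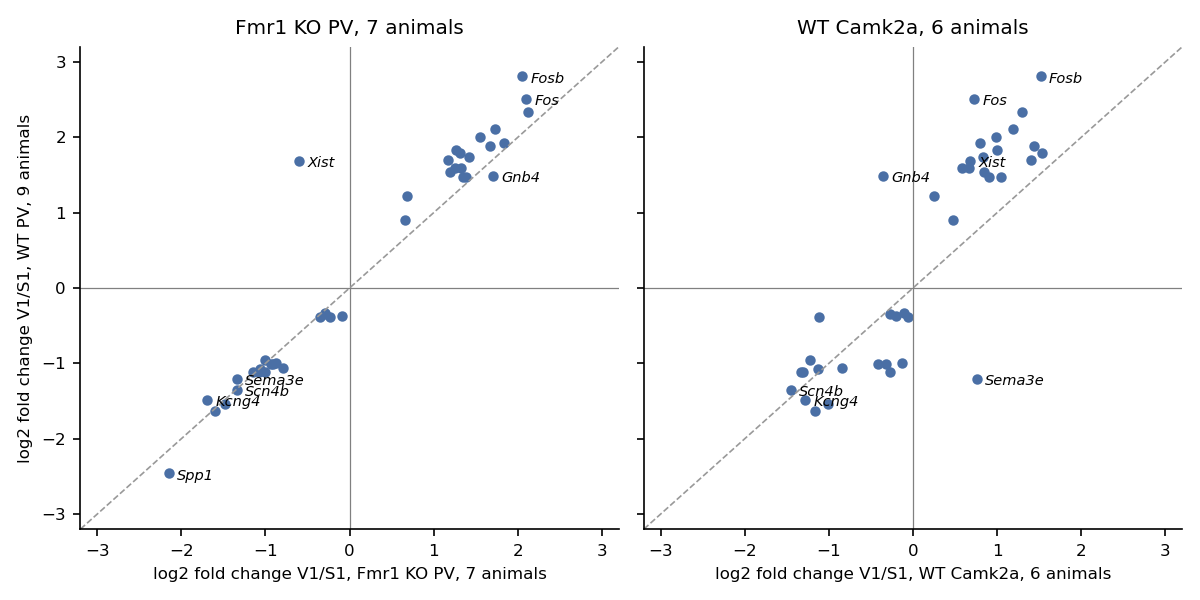
Log2 fold change V1 over S1 of the genes named for the largest change or the smallest p in WT PV neurons (y axis, 9 animals) against the same in Fmr1 KO PV neurons (left, 7 animals) and WT Camk2a neurons (right, 6 animals); the dashed line marks equal values. In KO the points lie near that line apart from Xist, and in Camk2a neurons Gnb4 and Sema3e lie in the quadrants of opposite sign.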

How the data were processed

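The authors deposited estimated counts per gene for 69 RiboTag libraries, not normalized, of which 71.1% were no whole numbers. Per the labels' protocols, RNA of integrity number 7 or more was made into libraries with the Ovation RNA-Seq System V2 kit, a cDNA amplification that adds no molecular identifiers, and sequenced as paired reads of 100 bases. The submitters' processing notes name STAR, Salmon, limma and mm10; roles and versions are not given in the sources used here. Such counts share reads between genes of common sequence. The table held 17634 genes, of which 17614 were named through the gene annotation supplied.

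Counts were rounded, filtered with filterByExpr, scaled with TMM and tested with the robust quasi-likelihood test of edgeR 4.0.16 (R 4.3.3), with the animal as a block. P-values were adjusted by Benjamini-Hochberg, and genes under 0.05 were called. Each adjusted p comes from edgeR except where a different tool is named. Alternatives used DESeq2 1.42.0, limma-voom (limma 3.58.1), other scalings and filters, no block, each animal left out, and scores of other cells. The scores were means of log2 CPM with a prior count of 1. The code was tested on simulated data.

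Libraries with the same animal code come from 1 mouse. In 9 animals without P22, deviations of the V1 and S1 library of a mouse from their area means correlated at 0.10 to 0.63 (median 0.49). Between mice the correlations were -0.52 to 0.59 (median -0.08), and 5 of the 9 V1 libraries were closest to their own mouse. Mice are the replicates, and with the animal as a block p-values measure the spread between mice of the V1 minus S1 difference. All replicate pairs differed by more than counting noise, the least at a chi-square of 4.35 per degree of freedom.

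Named genes were Pvalb, Rpl22 and Fmr1, the 15 called genes with the largest difference in each direction at a mean of at least 5 CPM, the 5 with the smallest p in each direction, up to 4 members of each of 46 lists and direction, and the 5 with the smallest p of the class difference. Genes of the genotype and sex differences are not named, since none passed. The text names some of the list members the rule gave, and a few outside it, such as Rheb, Ier5, Sst, Ncan and Vcan, chosen after their values were seen. Some genes the rule gave are not reported here. Members, lists and tests were chosen with earlier results of these data known, and 2 lists were added after the values were seen.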

Additional observations from a re-analysis of the deposited data

Results flagged for a closer look

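Animal P22 stood apart from the other WT animals in 10 of 57 values examined for a sample far from the rest. A single value is flagged by chance about 1 time in 20. These values come from the same libraries and some share genes, so they are not independent and the count cannot be set against that rate. The share of genes with the sign called in the other animals was 22.1% in P22. Its mean log2 difference between areas was -0.99 for activity-regulated genes, -0.53 for claustrum, insula and retrosplenial markers, -0.43 for oligodendrocyte precursor markers, -0.42 for neuropeptides, -0.34 for chandelier cell markers, -0.34 for RGS and G protein subunits, -0.27 for astrocyte markers, -0.23 for Eph receptors and ephrins and -0.22 for heat shock genes. In the other 9 animals these lists were at or above 0 on average, except heat shock genes in P2, at -0.01. Whether the libraries of P22 carry each other's label was not tested.

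Pvalb in the S1 library of P3 lay far below the other S1 libraries, at 186.6 CPM, and the V1 library of the same animal was the lowest of its area.

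The area effect differed between PV and Camk2a neurons for 257 genes. The 5 with the smallest p were Ptges3 (-0.40), Sema3f (1.20), Gm1673 (-1.25), Ndufab1 (-0.85) and Lima1 (1.29), each as the log2 area effect in PV minus that in Camk2a neurons.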

How the results depend on the processing

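The count of 4243 genes between V1 and S1 rested on the animals. It fell to between 1641 (without P2) and 2097 (without P20) when P1 (1941), P2, P3 (1774), P4 (1954) or P20 was left out, and rose to 6729 without P22. Without the replicate block for animal it was 3291, and without P22 and the block 5060. Without P22 it was 6783 with DESeq2, 7042 with limma-voom, 6736 with RLE and 6626 with upper-quartile scaling, 1450 in males only and 2057 with an excitatory score. With the glial score it was 0, and 1 without P22, and with the excitatory score 0. In KO, 283 genes were called without the replicate block, 2088 with DESeq2, 14 with limma-voom, 2975 without P9 and 4617 without P9 and P24. In Camk2a neurons the count was 3 without the replicate block, 980 with DESeq2 and 5263 without C24. The class difference gave 153 without the block, 1018 with DESeq2, 455 with limma-voom, 1576 without C24 and 3017 without P22 and C24. With single WT PV animals left out it ranged from 43 (P2) to 1984 (P22), and was 74 without P1, 81 without P3, 69 without P4, 101 without P18, 82 without P20 and 128 without P27. The sex difference gave 1 gene with DESeq2, and the genotype difference stayed at 0 under all settings run. The cause of these shifts was not tested.

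Of the values of 167 named genes under 28 settings, 3613 kept direction and side of the threshold, 830 kept direction only and no longer passed, 105 came to pass and 102 changed sign. Of the sign changes, 95 came with the glial score. In 10 animals the fit with this score leans on P22, as said above, so those values decide nothing about the area difference. Gfap, Aqp4, Slc1a2, S100b, Ugt8a, Vcan, Csf1r and Cx3cr1 are members of that score, so part of their shift is built in. In 10 animals with the glial score, values became Pvalb 0.00, Fmr1 0.03, Fosb -0.16, Fos -0.20, Xist -0.43, Tent5a -0.32, Fosl2 -0.29, Egr4 -0.16, Cdkn1a -0.41 and Scn3b -0.03. Others became Gnb4 -0.21, Sv2c 0.32, Scn4b 0.10, Sema3e 0.00, Gm26673 0.07, Egln3 0.18, S100b 0.05, Ugt8a 0.01, Medag 0.09 and Nr4a2 -0.18. Next were Bdnf -0.26, Per1 -0.09, Nptx2 -0.26, Vgf -0.09, Pim1 0.02, Kcnc2 -0.05, Kcna6 -0.15, Kcnf1 -0.01 and Kcnd3 -0.03. Then came Kcna1 0.14, Cacna1i 0.10, Hcn2 0.00, Scn8a 0.04, Nefl 0.06, Ina 0.03, Syt2 0.02, Lhx6 -0.07 and Acan 0.15. Further ones were Hapln1 0.08, Hapln4 0.06, Timp2 -0.10, Gabra5 0.12, Grin2a 0.05, Gria1 -0.02, Chrna7 0.21, Hrh3 0.01 and Hrh1 -0.09. After them came Cartpt -0.28, Scg2 -0.08, Vamp1 0.01, Pax6 -0.25, Rorb 0.16, Dlx1 0.02, Pou3f1 0.52, Efnb3 -0.24, Sema7a 0.00 and Sema3d -0.62. The last were Plxna3 -0.06, Clstn2 0.01, Bmp4 0.07, Fgf18 0.03, Hpcal4 -0.01, Necab1 -0.18, Calb1 -0.21, Aqp4 -0.35, Gfap -0.38 and Cx3cr1 -0.04. Without P22 and with the glial score, they became Pvalb 0.00, Xist -0.94, Gm1673 0.46, Lima1 -0.06, Nr4a2 -0.73, Gadd45b 0.32, Gad1 0.04, Slc32a1 0.16 and Tnc -0.13. Others were Ptprz1 -0.68, Gabrd 0.04, Npy 0.34, Pax6 -0.47, Efnb3 -0.01, Meg3 -0.19, Kcnq1ot1 -0.24, Gfap -0.10, Slc1a2 -0.00 and Csf1r -0.28. The rest were Cx3cr1 -0.03, Slc17a7 -0.00, Camk2a -0.15, Ndufb5 0.06, Atp5e 0.06, Rheb 0.19, Ier5 -0.03, Ncan -0.15 and Vcan -0.88. Lhx6 was at -0.00 without P21. Ier5 was at -0.09 with the excitatory score, -0.10 with that score without P22, and -0.14 in males only, where Sst was at 0.01. Vcan was at -0.08 with the excitatory score and -0.09 with that score without P22. Settings without P22 and in 1 sex were chosen after seeing the data. No gene named changed sign under another scaling, filter or tool.

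Low genes such as BC006965, under 1 CPM, rest on few reads. The depth of 30.74 to 48.29 M estimated counts was alike in both areas.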
